A study of Homo sapiens with 30 samples.

Results

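The genes described here are those whose response to a catalytically altered UTX depended on the culture medium of UMUC1 cells, an established human bladder cancer line with, per the series record, a loss-of-function mutation of UTX (gene KDM6A). They were chosen as a difference of differences over 12 of the 30 RNA-seq samples of the series. The log2 difference between HEAA and empty-vector cells in sphere medium was set against the same difference in full medium, with 3 libraries in each of the 4 groups. HEAA is UTX with the substitutions H1146A and E1148A, and EV is the empty vector. The 6 libraries with wild type UTX in the same vector and media (UTX_full and UTX_sphere, 3 each) shared the fit and are set beside HEAA at the end. All were expressed stably from pSIN-puro, so the puromycin vector was common to all groups, as was the UTX mutation of the cell line itself. Full medium (groups EV_full and HEAA_full) was MEM with 10% fetal bovine serum. Sphere medium (EV_sphere and HEAA_sphere) was MEM without serum that held the growth factors EGF and FGF2, 20 ng/ml of each, and B27 lacking vitamin A. RNA was taken on day 3. Whether the 3 libraries of a group were grown as separate cultures is not stated in the labels. The p-values below therefore rest on the spread of these libraries alone, which may be technical. A positive interaction means that HEAA relative to EV was higher in sphere than in full medium, and a negative one that it was lower. Of 19629 genes tested, 6481 passed an adjusted p of 0.05 (33.0%), 3678 of them positive (18.7%) and 2803 negative (14.3%).

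UTX is a histone demethylase that removes methyl groups from lysine 27 of histone H3, the mark that Polycomb repressive complex 2 (PRC2) places, and it is a subunit of the KMT2C and KMT2D methyltransferase complexes. The altered histidine and glutamate lie in its iron-binding catalytic centre, and variants of this kind are used to separate the demethylase activity from other functions of the protein. UTX is among the genes most often mutated in bladder cancer. The epithelium of the bladder and its tumours can carry luminal, basal or squamous programmes, the last with the keratins, small proline-rich proteins and S100 proteins that otherwise build the skin barrier.

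Total counts per library ran from 27425684 to 39415722 in EV_full, 25623028 to 30029477 in HEAA_full, 31305529 to 34305388 in EV_sphere and 24250265 to 40111234 in HEAA_sphere. Levels are given in CPM, the count relative to the TMM-adjusted total of each library, which does not adjust for gene length. Epithelial markers were present in every library. EPCAM lay between 152.7 and 180.3 CPM and the adhesion molecule CDH1 between 432.4 and 737.9 CPM. The summed level of 9 fibroblast markers was 44.5 to 54.2 CPM in EV_full, 40.7 to 44.7 in HEAA_full, 12.2 to 13.9 in EV_sphere and 15.1 to 17.3 in HEAA_sphere. LUM, a matrix proteoglycan, made up most of it in full medium and COL1A1 most of it in sphere medium, while DCN and PDGFRA held at most 6 counts over a group. The 10 leukocyte and endothelial markers summed to 6.06 to 7.45, 9.46 to 9.88, 12.4 to 14.7 and 18.9 to 20.6 CPM in the same order, with KDR at 0 in all 12 libraries, and their part in the results below was not tested. EV_sphere replicate 2 stood apart from its group: its counts differed from the other 2 libraries by chi-square values per gene of 14.89 and 14.7, against 6.8 between those 2 and 2.88 to 8.2 among the other same-group pairs. Without it the interaction gave 3566 positive and 2389 negative genes.

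KDM6A itself (GRCh38, GENCODE release 29, as for all positions below: chromosome X, 44873177 to 45112602) was measured at 16.5, 17.9 and 17.8 CPM in EV_full and at 691.8, 687.2 and 701.6 CPM in HEAA_full. In sphere medium it was at 7.71, 9.08 and 7.74 CPM with EV and at 926.3, 956.5 and 945.7 CPM with HEAA. The HEAA libraries therefore lay far above the EV libraries in both media, and the difference was larger in sphere medium (log2 interaction 1.54 ± 0.07 (SE), adjusted p = 4.87e-13). These counts do not separate RNA of the vector from that of the cells' own gene, and they cannot show the 2 substitutions. The wild type UTX vector gave mean levels of 579 CPM in full and 861 CPM in sphere medium, and its medium dependence for KDM6A did not differ from that of HEAA at the threshold (difference -0.13 ± 0.05, adjusted p = 0.182).

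Most medium-dependent genes answered HEAA in 1 medium and not detectably in the other. Of the 6481 genes, 2310 (11.8% of those tested) differed between HEAA and EV in full medium only and 1496 (7.62%) in sphere medium only. A further 949 (4.83%) passed in both media in opposite directions, of which 515 had a positive and 434 a negative interaction. Another 894 (4.55%) moved the same way in both and further in full medium, 661 (3.37%) the same way and further in sphere medium, and 171 (0.871%) passed in neither. The typical size was small: the median absolute log2 interaction of the genes that passed was 0.41, and 533 positive (2.72%) and 559 negative (2.85%) interactions were at least 2-fold. The median over all genes tested was -0.008. For comparison, 4554 genes were higher (23.2%) and 4975 lower (25.3%) with HEAA in full medium, and 3906 were higher (19.9%) and 4212 lower (21.5%) in sphere medium. Between the media, 33.1% of genes were higher and 32.4% lower in sphere medium with EV, and 34.4% and 36.3% with HEAA. In bulk RNA a change in the share of cells of a type and a change in RNA per cell cannot be told apart.

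**Figure D1:**
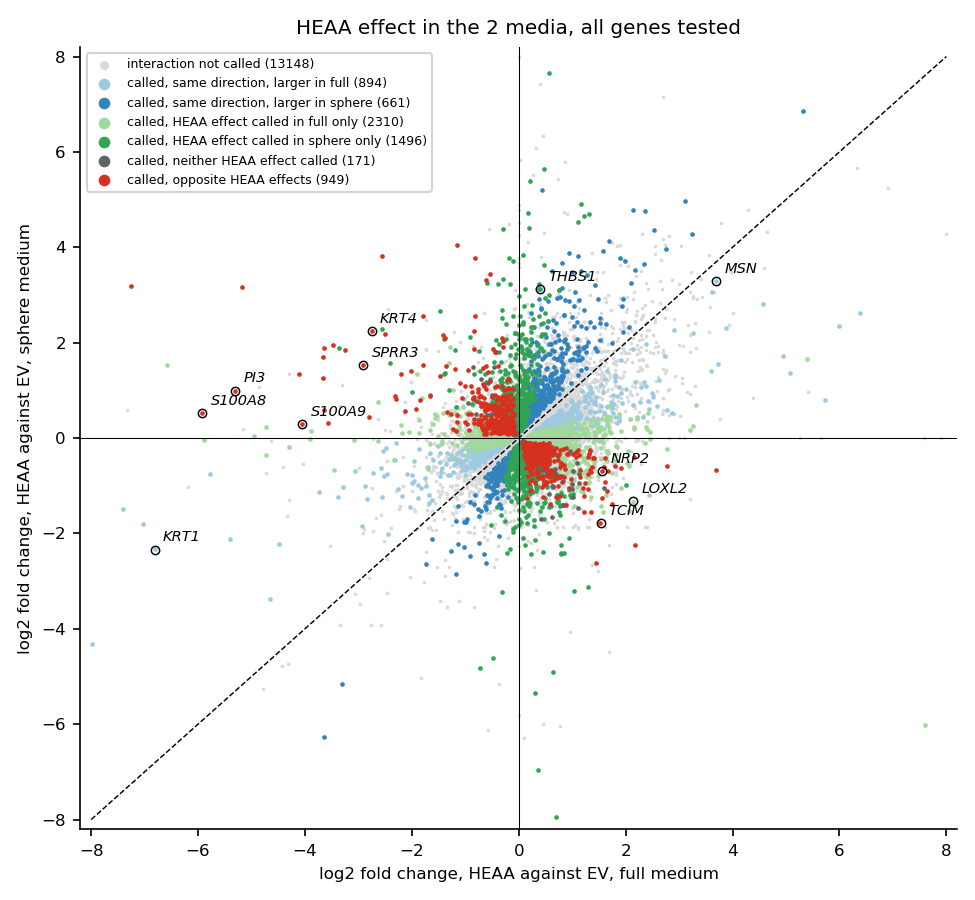
Each point is 1 of the 19629 genes tested, with the log2 difference of HEAA from EV in full medium on the horizontal axis and in sphere medium on the vertical axis, coloured by the category of its interaction; 2 genes past the axis limit of 8 are drawn at the limit. The 949 genes with opposite effects lie at the upper left and lower right, and the distance from the diagonal is the size of the interaction.

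S100A8 and S100A9, calcium-binding proteins that pair into the inflammatory complex calprotectin, had opposite responses in the 2 media. S100A8 (chromosome 1, 153390032 to 153391188, minus strand) was at 21.8, 22.0 and 17.9 CPM in EV_full and at 0.212, 0.476 and 0.318 CPM in HEAA_full, whereas in sphere medium it was at 667.3, 636.1 and 670.5 CPM with EV and at 961.2, 912.3 and 950.8 CPM with HEAA. The groups did not overlap in either medium, and HEAA was below EV in full medium and above it in sphere medium. On the log2 scale S100A8 fell by 5.92 ± 0.15 with HEAA in full medium (adjusted p = 1.09e-17) and rose by 0.52 ± 0.06 in sphere medium (adjusted p = 1.37e-07), an interaction of 6.44 ± 0.17 (adjusted p = 9.29e-17). Read the other way, sphere medium raised S100A8 by 5.01 with EV and by 11.45 with HEAA. S100A9 (chromosome 1, 153357854 to 153361027, plus strand) was at 327.4, 335.6 and 322.7 CPM in EV_full, 19.6, 20.2 and 19.6 in HEAA_full, 2495, 2409 and 2579 in EV_sphere and 3049, 2987 and 3097 in HEAA_sphere. It followed S100A8 with an interaction of 4.34 ± 0.07 (adjusted p = 2.01e-21), made of a difference of -4.05 in full and 0.29 in sphere medium.

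S100A7, psoriasin, an antimicrobial S100 protein of skin, had no count in HEAA_full against 66 counts over the 3 EV_full libraries (0.283, 0.967 and 0.62 CPM), at least 18.7-fold lower with a floor of 3 counts over the group. In sphere medium it stood at 2.34, 1.57 and 1.75 CPM with EV and at 17.0, 17.8 and 16.8 CPM with HEAA, 9.08-fold higher. Its interaction passed the test (adjusted p = 1.65e-07), and with the floor in place of 0 it was 7.40 on the log2 scale. S100A12, named after its values were seen, was at 3.54, 3.55 and 3.37 CPM in EV_sphere and 8.18, 9.17 and 9.81 CPM in HEAA_sphere, with 13 and 4 counts over the EV_full and HEAA_full groups. Of 13 S100 genes tested, 5 had a positive interaction (38.5%, against 18.7% of all genes), the fifth being S100P (0.44), and 1 a negative one, S100A4 (-0.39, adjusted p = 0.0207). The other 7 did not pass. S100A2, S100A6, S100A11, S100A13, S100A14 and S100A16 were lower with HEAA in both media by amounts whose difference missed the threshold. With the replicate number as a block within EV_full and HEAA_full, S100A2 passed (0.17, adjusted p = 0.0363). The negative count was 0 with DESeq2 and without any 1 of 7 libraries, replicates 1 and 2 of EV_full, 1 and 3 of HEAA_full, 1 of EV_sphere and 2 and 3 of HEAA_sphere.

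S100A7, S100A8, S100A9, S100A12 and the small proline-rich protein gene SPRR3 lie within the same stretch of chromosome 1, the epidermal differentiation complex. Sequences of the 250 bases before a start site are shown for these 5 genes, from RefSeq on GRCh38.p14, on the gene's strand from 5′ to 3′. They were picked, with their values known, from the 15 genes of the complex with a positive interaction, and the windows of the others are not shown. Capitals mark matches to TATAAA on the gene's strand, to the AP-1 motif TGANTCA on either strand and to the TEAD motif GGAATG on either strand. The window of THBS1, a positive gene of chromosome 15, was also read and held GGAATG but no TATAAA. S100A8 has 3 start sites in the table. The second is shown because its window holds TATAAA nearest the start; the window of the first, the outermost, holds no match, and in that of the third the same letters lie at -126 to -121.
S100A8, chr1:153391074-153391323, minus strand: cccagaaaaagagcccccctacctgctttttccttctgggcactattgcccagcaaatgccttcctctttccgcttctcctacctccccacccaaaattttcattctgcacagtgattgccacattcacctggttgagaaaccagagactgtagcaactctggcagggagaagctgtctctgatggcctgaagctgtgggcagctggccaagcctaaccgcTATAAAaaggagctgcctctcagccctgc
S100A9, chr1:153357604-153357853, plus strand: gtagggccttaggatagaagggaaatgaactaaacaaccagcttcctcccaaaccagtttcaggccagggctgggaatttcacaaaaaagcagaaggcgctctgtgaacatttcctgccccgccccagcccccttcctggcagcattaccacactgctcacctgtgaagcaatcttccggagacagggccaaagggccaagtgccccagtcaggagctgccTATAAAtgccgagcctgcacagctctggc
S100A7, chr1:153460652-153460901, minus strand: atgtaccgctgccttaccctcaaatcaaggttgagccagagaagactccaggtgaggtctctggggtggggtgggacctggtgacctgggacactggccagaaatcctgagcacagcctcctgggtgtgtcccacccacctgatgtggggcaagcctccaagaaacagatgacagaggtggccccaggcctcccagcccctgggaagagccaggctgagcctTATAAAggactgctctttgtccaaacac
S100A12, chr1:153375622-153375871, minus strand: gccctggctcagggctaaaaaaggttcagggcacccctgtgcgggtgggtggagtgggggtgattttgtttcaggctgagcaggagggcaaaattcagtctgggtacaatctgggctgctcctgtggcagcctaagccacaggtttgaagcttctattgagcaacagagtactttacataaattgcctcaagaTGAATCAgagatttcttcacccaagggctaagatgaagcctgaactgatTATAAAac
SPRR3, chr1:153001499-153001748, plus strand: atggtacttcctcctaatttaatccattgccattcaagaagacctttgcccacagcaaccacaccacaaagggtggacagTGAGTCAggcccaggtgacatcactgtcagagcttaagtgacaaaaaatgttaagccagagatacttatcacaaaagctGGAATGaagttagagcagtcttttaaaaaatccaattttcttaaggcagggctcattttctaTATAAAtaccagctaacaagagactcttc
Counted back from the start site, TATAAA lay at -29 to -24 in S100A9, SPRR3 and the second S100A8 window, at -28 to -23 in S100A7 and at -8 to -3 in S100A12. S100A12 also held TGAATCA at -57 to -51, and SPRR3 held TGAGTCA at -170 to -164 and GGAATG at -91 to -86.

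Across all genes with an entry, TGANTCA, the motif bound by FOS and JUN dimers, was found in 12.6% of the 530 upstream windows of genes with a positive interaction of at least 2-fold (67 windows of 350 genes). It was found in 5.26% of the 456 windows of genes with a negative interaction of that size, in 5.06% of the 17305 windows of all genes tested and in 6.57% of all 35116 windows. TATAAA on the gene's strand was found in 11.3%, 6.58%, 4.09% and 6.80% of the same sets, and GGAATG in 12.8%, 11.4%, 10.2% and 11.9%. The share for AP-1 and TATA letters was thus higher among the positive genes, and that for the TEAD letters was near that of all windows. A match is a run of letters and no evidence of binding, and start sites of 1 gene share sequence. The 5 windows printed above were picked, that of S100A8 for its match, so TATAAA in each of them is no result about the complex.

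Genes of the squamous and cornified envelope list included large positive values. Of 23 tested, 16 were positive (69.6%) and 3 negative (13%), with a median log2 interaction of 1.84, or 1.87 with genes at 0 set to their floor. In full medium 12 were lower and 2 higher with HEAA, and in sphere medium 9 were lower and 11 higher. In full medium 2 of the 23 held at most 3 counts in each group and could hardly be called there. The shares over all genes, to set beside such counts of every list, were 25.3% lower and 23.2% higher in full medium. In sphere medium they were 21.5% lower and 19.9% higher. PI3 (chromosome 20, 45174876 to 45176544), the elastase inhibitor elafin, was at 7.58, 6.80 and 5.51 CPM in EV_full, 0.0706, 0.366 and 0.0636 in HEAA_full, 294.8, 266.6 and 258.5 in EV_sphere and 544.0, 514.5 and 564.4 in HEAA_sphere. Its interaction was 6.30 ± 0.27 (adjusted p = 4.93e-13). SPRR3, which is crosslinked into the cornified envelope, was at 4.68, 4.19 and 3.5 CPM in EV_full, 0.282, 0.549 and 0.763 in HEAA_full, 199.5, 201.4 and 217.3 in EV_sphere and 600.3, 592.1 and 589.6 in HEAA_sphere (4.43 ± 0.19, adjusted p = 4.87e-13). For both genes HEAA lay below EV in full and above EV in sphere medium without overlap.

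KRT4 (chromosome 12, 52806549 to 52814551), a keratin of internal stratified epithelia, was at 6.66, 6.60 and 5.61 CPM in EV_full, 0.953, 0.732 and 1.08 in HEAA_full, 2.20, 2.33 and 1.59 in EV_sphere and 9.86, 9.51 and 9.58 in HEAA_sphere. It thus fell by 2.75 ± 0.20 with HEAA in full medium and rose by 2.24 ± 0.17 in sphere medium (interaction 4.99 ± 0.26, adjusted p = 7.85e-12). It was also lower in sphere than in full medium with EV and higher with HEAA. KRT23, a type I keratin, had mean levels of 0.828, 0.0707, 5.29 and 20.5 CPM in EV_full, HEAA_full, EV_sphere and HEAA_sphere (5.44 ± 0.39). CYP4F22, which hydroxylates very long fatty acids for skin ceramides, rose 14.2-fold with HEAA in sphere medium. It held 9 counts in EV_full and 1 in HEAA_full, a ratio of 7.64 with a 95% exact counting interval of 1.06 to 335. SDR9C7, a dehydrogenase acting on the same lipids, was 3.27-fold higher with HEAA in sphere medium and held 5 counts in EV_full and 0 in HEAA_full, at least 1.41-fold lower. Intervals and floors cover counting error only.

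On the log2 scale, other barrier genes were reduced by HEAA mainly in full medium. KRT1 (chromosome 12, 52674736 to 52680407), the type II keratin of differentiating epidermis, was at 46.4, 49.5 and 44.4 CPM in EV_full and at 0.0706, 0.732 and 0.445 CPM in HEAA_full. In sphere medium it was at 3991, 4193 and 4716 CPM with EV and at 905.9, 769.5 and 880.7 CPM with HEAA. All HEAA libraries were below all EV libraries in each medium, by 6.81 ± 0.18 on the log2 scale in full and 2.34 ± 0.08 in sphere medium, and the positive interaction of 4.47 ± 0.24 (adjusted p = 7.30e-12) is the difference of these 2 falls. On the CPM scale the loss was larger in sphere medium. Such a change of sign between the log2 and the CPM scale was seen in 303 of the 6481 genes (4.7%).

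DSG1, the desmosomal cadherin of upper epidermis, held 517 counts in EV_full and 3 in HEAA_full, a ratio of 146 (counting interval 49.8 to 711), and was 3.51-fold lower with HEAA in sphere medium. KRTDAP, a secreted protein of differentiating keratinocytes, held 153 and 2 counts (64.9, interval 17.7 to 541) and was 1.68-fold lower in sphere medium. SPRR2D, with 86 and 2 counts (36.5, interval 9.80 to 306), and the lipase gene LIPN, with 58 and 3 counts (16.4, interval 5.34 to 81.9), were lower with HEAA in full medium and did not pass in sphere medium. SERPINB3, a squamous cell carcinoma antigen, was at 4.07, 4.60 and 4.24 CPM in EV_full and at 0, 0 and 0.191 CPM in HEAA_full. In sphere medium it was at 81.3, 84.2 and 86.0 CPM with EV and at 81.2, 83.5 and 81.1 CPM with HEAA, 2 overlapping groups (interaction 5.85 ± 0.32, adjusted p = 6.27e-11). Without HEAA_full replicate 3, the 1 HEAA library of full medium with SERPINB3 reads, the fitted interaction was 9.98, and that of LIPN was 7.23 against 4.02 with all libraries. Its neighbour SERPINB4 held 11 counts in EV_full and 0 in HEAA_full, at least 3.11-fold lower. SERPINB3 and SERPINB4, the SPRR2 genes and the KRT6 genes are near-identical copies whose counts may be split between them. RPTN, with 9 and 1 counts in full medium and 2.10 and 10.2 CPM in EV_sphere and HEAA_sphere, passed with an adjusted p of 0.0261 and missed the threshold without any 1 of 4 libraries, EV_full replicates 2 and 3 and HEAA_full replicates 2 and 3 (adjusted p up to 0.134).

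**Figure D2:**
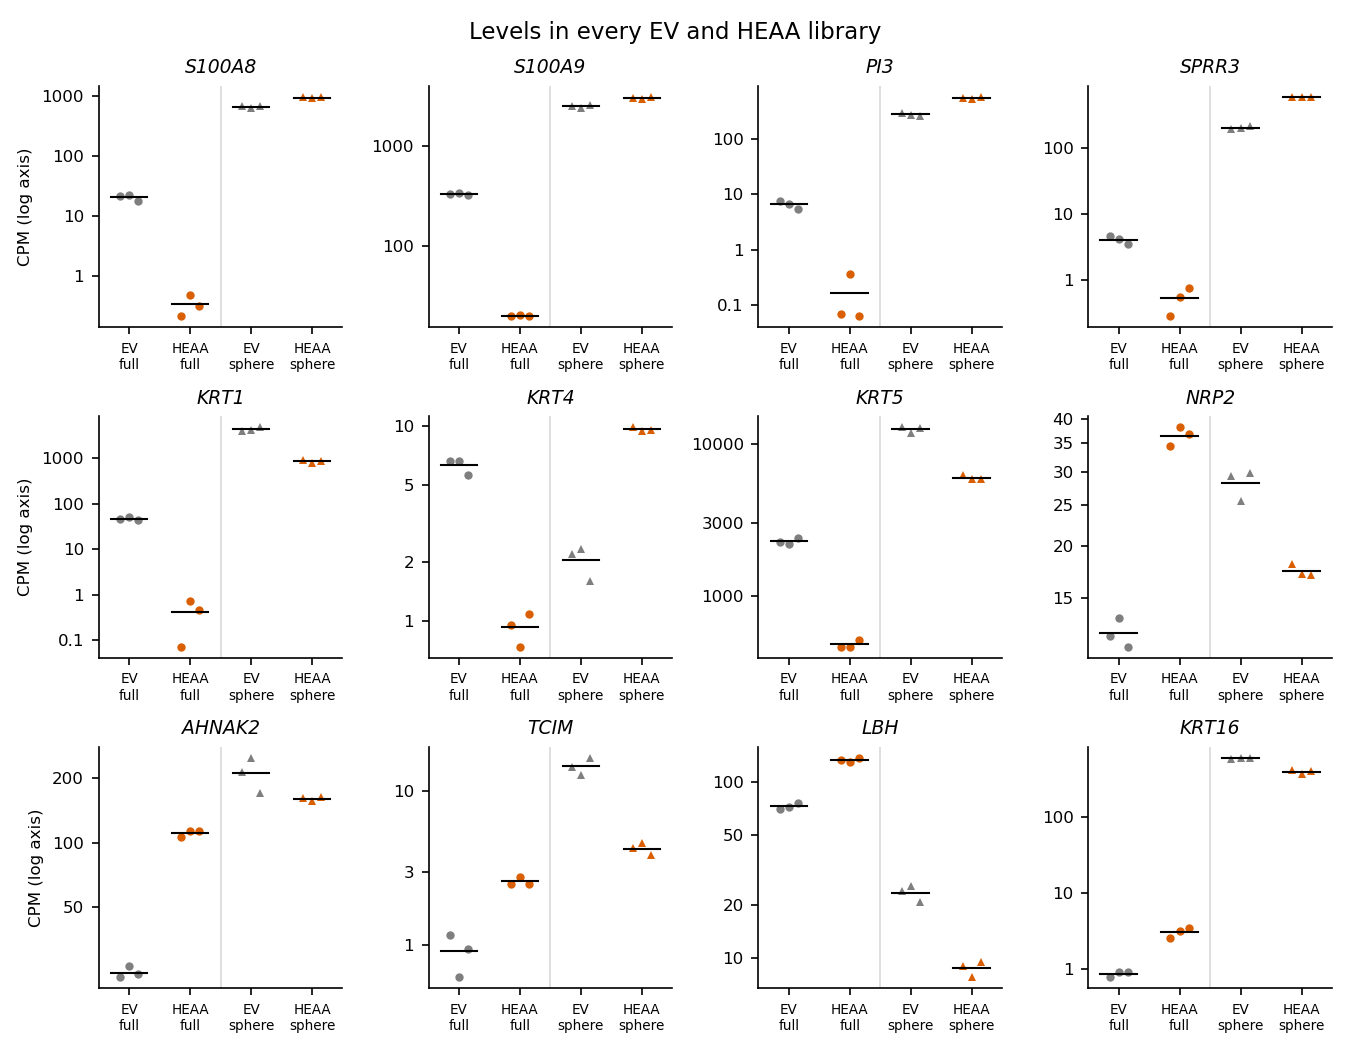
Levels of 12 genes in each of the 12 EV and HEAA libraries, in CPM on log axes that differ between panels. Circles are full medium, triangles sphere medium, grey EV, orange HEAA, and bars are group means. In the panels of S100A8, S100A9, PI3, SPRR3 and KRT4 HEAA lies below EV in full and above it in sphere medium, and in NRP2, AHNAK2, TCIM, LBH and KRT16 the order is the reverse.

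Not all squamous genes followed. KRT16, a keratin of stressed and hyperproliferating epidermis, had the reverse pattern, with means of 0.869 CPM in EV_full, 3.06 in HEAA_full, 586 in EV_sphere and 392 in HEAA_sphere and an interaction of -2.39 ± 0.18 (adjusted p = 2.51e-09). KRT17 (-0.79) and KRT10 (-0.50) were the other negative members, and KRT6A (1.02) was positive; these 3 and the other list members given below by values alone were picked after their values were seen. Among 16 basal genes 3 were positive (18.8%) and 7 negative (43.8%), against 18.7% and 14.3% of all genes, the shares to set beside every list below. KRT5 was at 2264, 2204 and 2393 CPM in EV_full, 462.6, 461.0 and 512.1 in HEAA_full, 12850, 11890 and 12810 in EV_sphere and 6221, 5887 and 5886 in HEAA_sphere. HEAA lowered KRT5 in both media, more in full on the log2 scale (1.20 ± 0.07, adjusted p = 3.21e-11). On the CPM scale the loss of KRT5 was larger in sphere medium. KRT14, the basal partner of KRT5, was not detectably changed in full medium (13, 12.5 and 12.7 against 13.1, 13.5 and 14.3 CPM) and fell by 1.11 ± 0.04 in sphere medium, from 1419, 1280 and 1282 to 643.4, 584.4 and 612.6 CPM (interaction -1.21 ± 0.08).

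Of 19 luminal genes 9 were positive (47.4%) and 3 negative (15.8%). ELF3, an epithelial ETS transcription factor often mutated in bladder cancer, was at 101.9, 107.3 and 103.0 CPM in EV_full, 93.5, 91.3 and 90.4 in HEAA_full, 5.21, 4.63 and 3.88 in EV_sphere and 11.4, 10.5 and 10.4 in HEAA_sphere (1.43 ± 0.10, adjusted p = 3.21e-10). Sphere medium lowered it with both vectors, less with HEAA. GRHL3, a transcription factor of epithelial barrier formation, fell by 1.51 ± 0.07 with HEAA in full medium and by 0.16 ± 0.05 in sphere medium (interaction 1.35 ± 0.09). CD24, a surface glycoprotein, rose in both media and more in full (-1.08 ± 0.07). The uroplakin UPK1B, a plaque protein of the bladder surface, rose in both and more in sphere medium (0.67). In the junction list 9 of 16 were positive (56.2%) and 3 negative (18.8%). The tight junction genes OCLN (0.93 ± 0.06) and CLDN7 (0.87 ± 0.06) were lower with HEAA in full and higher in sphere medium, and the desmosomal plaque gene DSP moved the other way (-0.73 ± 0.05, adjusted p = 1.37e-10). Of 8 mesenchymal genes 1 passed, MSN, whose rise of 3.70 in full medium exceeded that of 3.29 in sphere medium (-0.41). Without EV_full replicate 2 or UTX_full replicate 2 another member passed as positive.

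LOXL2, a lysyl oxidase that crosslinks collagen, was at 0.779, 0.85 and 0.695 CPM in EV_full and at 3.21, 3.77 and 3.24 CPM in HEAA_full, without overlap. In sphere medium it was at 1.84, 7.55 and 0.518 CPM with EV and at 1.19, 1.27 and 1.43 CPM with HEAA, so the HEAA values lay inside the EV range. The log2 difference was 2.14 ± 0.63 in full medium (adjusted p = 0.00727) and -1.33 ± 0.59 in sphere medium (adjusted p = 0.0773), and the interaction -3.47 ± 0.86 (adjusted p = 0.00347). Without EV_sphere replicate 2, the library at 7.55 CPM, the interaction was -1.98 (adjusted p = 0.0299); leaving out any other library gave -3.96 to -3.35. The rise in full medium was thus measured in all 3 libraries, while the interaction lost much of its size without EV_sphere replicate 2.

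Other genes with opposite effects had negative interactions. NRP2, a semaphorin and VEGF coreceptor, was at 12.2, 13.5 and 11.5 CPM in EV_full, 34.5, 38.2 and 36.8 in HEAA_full, 29.3, 25.6 and 29.7 in EV_sphere and 18.1, 17.1 and 17.0 in HEAA_sphere (-2.26 ± 0.10, adjusted p = 4.87e-13). HEAA lay above EV in full and below EV in sphere medium without overlap. The giant scaffold gene AHNAK2 rose from 23.5, 26.5 and 24.3 to 106.2, 113.9 and 113.0 CPM in full medium and fell from 214.0, 249.3 and 170.3 to 161.4, 157.2 and 164.0 CPM in sphere medium (-2.56 ± 0.13). LBH, a transcription cofactor, rose from a mean of 73 to 134 CPM in full and fell from 23.5 to 8.78 CPM in sphere medium (-2.29 ± 0.11). SESN3, a stress-induced sestrin, had means of 0.0577, 0.808, 9.29 and 5.81 CPM in EV_full, HEAA_full, EV_sphere and HEAA_sphere (-4.37 ± 0.33). TCIM (-3.31 ± 0.22), the exchange factor MCF2L (-2.77 ± 0.16) and the cadherin CDH26 (-2.20 ± 0.29) completed the 8 largest at 2 CPM or more whose EV and HEAA libraries did not overlap in either medium, KRT16 being 1 of them.

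Other large negative values came from genes that HEAA raised mainly in full medium. The membrane mucin MUC4 rose from a mean of 2.05 to 14 CPM in full medium and was at 0.828 and 0.719 CPM in sphere medium (-3.01 ± 0.28). FBN1, fibrillin 1, rose from 4.96 to 27.3 CPM and was at 0.777 and 0.861 CPM in sphere medium (-2.33 ± 0.29). The Rac and Cdc42 exchange factor DOCK11 (-2.19 ± 0.16) and the proteoglycan CSPG4 (-2.54 ± 0.27) were also higher with HEAA in full medium; CSPG4 was lower in sphere medium (-0.62 ± 0.22, adjusted p = 0.0274). BMP3 differed in kind: it was 12.5-fold lower with HEAA in full medium and held 177 counts in EV_sphere and 2 in HEAA_sphere, a ratio of 91.8 (interval 25 to 764). POLR2J2, which has near-identical copies, was at 10.1, 16 and 18.1 CPM in EV_sphere and 0, 0 and 1.56 CPM in HEAA_sphere. It passed with an adjusted p of 0.0396, missed the threshold without any 1 of 8 libraries, replicates 1 and 2 of EV_full, 1 and 3 of HEAA_full, 2 and 3 of EV_sphere and 1 and 2 of HEAA_sphere (adjusted p up to 0.232), was at -11.03 without HEAA_sphere replicate 3 against -4.09 with all libraries, and had an adjusted p of 0.251 with DESeq2.

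Signalling genes differed by pathway. Among 18 feedback regulators, targets and receptors of FGF receptor and MAP kinase signalling 11 were positive (61.1%) and 3 negative, with a median of 0.53. FGFBP1, a carrier that releases FGF from matrix, fell from 237.9, 250.2 and 252.0 to 85.6, 89.9 and 90.7 CPM in full medium and from 1888, 1858 and 1992 to 1367, 1363 and 1318 CPM in sphere medium (0.97 ± 0.06, adjusted p = 4.96e-11). The phosphatase gene DUSP5 did not change detectably in full medium and rose by 0.87 ± 0.04 in sphere medium (0.93 ± 0.06). EMP1 fell by 0.85 ± 0.04 in full medium only (0.91 ± 0.06). The MAP kinase feedback genes SPRY4 (1.56), ETV4 (1.17) and DUSP6 (0.97) were lower with HEAA in full medium, and of these only ETV4 also passed as lower in sphere medium. The receptors FGFR2 (-0.41) and FGFR3 (-0.42) and the phosphatase DUSP4 (-0.40) were the negative members.

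The ERBB ligand list also held the receptor gene ERBB4. Of its 9 tested members 4 were positive (44.4%) and none negative with edgeR, with DESeq2 or at an unadjusted p under 0.05. Without HEAA_sphere replicate 2 the negative count was 1. EREG, epiregulin, was at 34.8, 35.6 and 35.0 CPM in EV_full, 21.9, 21.8 and 21.0 in HEAA_full, 28.4, 33.1 and 32.3 in EV_sphere and 55.5, 61.8 and 56.6 in HEAA_sphere. HEAA was below EV in full and above it in sphere medium (1.59 ± 0.08, adjusted p = 2.09e-12). AREG, amphiregulin, also had opposite effects (0.81 ± 0.07), and TGFA rose in both media and more in sphere (0.94 ± 0.08). Of 14 AP-1 and immediate early genes 3 were positive and 3 negative (21.4% each). FOSL1, an AP-1 subunit of squamous cells, rose by 0.64 ± 0.05 in sphere medium only (0.68 ± 0.07), whereas FOSL2 was higher with HEAA in full and lower in sphere medium (-0.56 ± 0.07). MYC fell by 0.62 ± 0.03 in full medium and rose by 0.09 ± 0.03 in sphere medium (0.71 ± 0.05).

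Among 20 targets of YAP, TGF-beta and SRF, cytoskeletal and matrix genes, 4 were positive (20%) and 8 negative (40%). The actin-binding genes TPM1 (-1.01 ± 0.06) and AJUBA (-0.41 ± 0.04) rose with HEAA in full medium and fell in sphere medium. In the list of collagen crosslinking and matricellular genes 4 of 20 were positive (20%) and 6 negative (30%). THBS1, thrombospondin 1, was at 2288, 2356 and 2173 CPM in EV_full, 2812, 3122 and 3033 in HEAA_full, 12.7, 11.1 and 8.45 in EV_sphere and 96.6, 95.2 and 87.9 in HEAA_sphere. It rose by 0.40 ± 0.08 in full and by 3.12 ± 0.10 in sphere medium (2.72 ± 0.13, adjusted p = 1.17e-12). CCN1, a matricellular YAP target, rose in full and fell in sphere medium (-1.38 ± 0.08), and SPP1, osteopontin, fell by 3.74 ± 0.10 and 1.13 ± 0.18 (2.61 ± 0.22).

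Of 13 NF-kB targets and cytokines 9 were positive (69.2%) and none negative with edgeR, with a median of 0.90. DESeq2 also gave 0 negative members, and 1 was negative at an unadjusted p under 0.05. IL1B, interleukin 1 beta, was at 30.4, 30.6 and 32.3 CPM in EV_full, 35.0, 35.2 and 35.5 in HEAA_full, 57.9, 50.9 and 58.4 in EV_sphere and 120.7, 121.1 and 110.3 in HEAA_sphere (0.90 ± 0.07, adjusted p = 5.86e-09). LCN2, the iron-siderophore binder lipocalin 2, overlapped between EV and HEAA in full medium and rose from 0.467, 0.383 and 0.388 to 3.19, 4.08 and 3.80 CPM in sphere medium (3.02 ± 0.30). ICAM1, a leukocyte adhesion molecule, fell in full and rose in sphere medium (1.69 ± 0.21). In the interferon-stimulated list 6 of 19 were positive (31.6%) and 2 negative (10.5%), and without EV_full replicate 1, HEAA_full replicate 2 or 3 or EV_sphere replicate 2 or 3 the negative count was 1. The antiviral synthetases OAS1 (0.71), OAS2 (0.79 ± 0.06) and OAS3 (0.76 ± 0.05) were each lower with HEAA in full medium. In sphere medium OAS2 was lower and OAS3 higher.

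Metabolic lists went different ways. Of 15 genes of serine synthesis and the ATF4 stress response none was positive and 10 were negative (66.7%, against 14.3% of all genes), with a median of -0.33. The positive count was also 0 with DESeq2 and at an unadjusted p under 0.05, and it was 1 without EV_sphere replicate 1. With HEAA 5 members were higher and 7 lower in full medium, against 23.2% and 25.3% of all genes. In sphere medium 1 was higher and 13 lower, against 19.9% and 21.5% of all genes. SESN2, a sestrin that restrains mTORC1, rose from 22.6, 22.3 and 21.8 to 36.2, 39.5 and 35.6 CPM in full medium and fell from 39.2, 37.1 and 38.3 to 28.9, 29.9 and 29.6 CPM in sphere medium (-1.11 ± 0.07, adjusted p = 4.61e-11). CHAC1, which degrades glutathione, moved likewise (-1.83 ± 0.18), and the cystine transporter gene SLC7A11 rose in both media and more in full (-0.69 ± 0.08). Of 24 cholesterol genes 7 were positive (29.2%) and 3 negative (12.5%). In that list 18 were lower with HEAA in full and 16 in sphere medium, so most members fell in each medium.

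Of 12 fatty acid synthesis genes 6 were positive (50%) and 1 negative (8.33%), and SCD, the stearoyl-CoA desaturase, fell by 1.45 ± 0.04 in full and 0.71 ± 0.04 in sphere medium (0.74 ± 0.05). The negative count of this list was 0 without EV_full replicate 1, HEAA_full replicate 1 or HEAA_sphere replicate 2. In the hypoxia and glycolysis list 2 of 16 were positive (12.5%) and 6 negative (37.5%), with VEGFA higher with HEAA in full and lower in sphere medium (-0.50 ± 0.07). Of 12 retinoid genes 1 was positive (8.33%) and 4 negative (33.3%). ALDH1A3, which makes retinoic acid, rose by 1.59 ± 0.04 in full and 0.52 ± 0.05 in sphere medium (-1.07 ± 0.07, adjusted p = 7.22e-11), and the retinaldehyde reductase DHRS3 rose in full and fell in sphere medium (-1.41 ± 0.12). TGM2, a transglutaminase induced by retinoids, fell in full and rose in sphere medium (1.40 ± 0.15). The positive count of the retinoid list was 2 without EV_sphere replicate 1 or 2 or HEAA_sphere replicate 1 or 2.

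**Figure D3:**
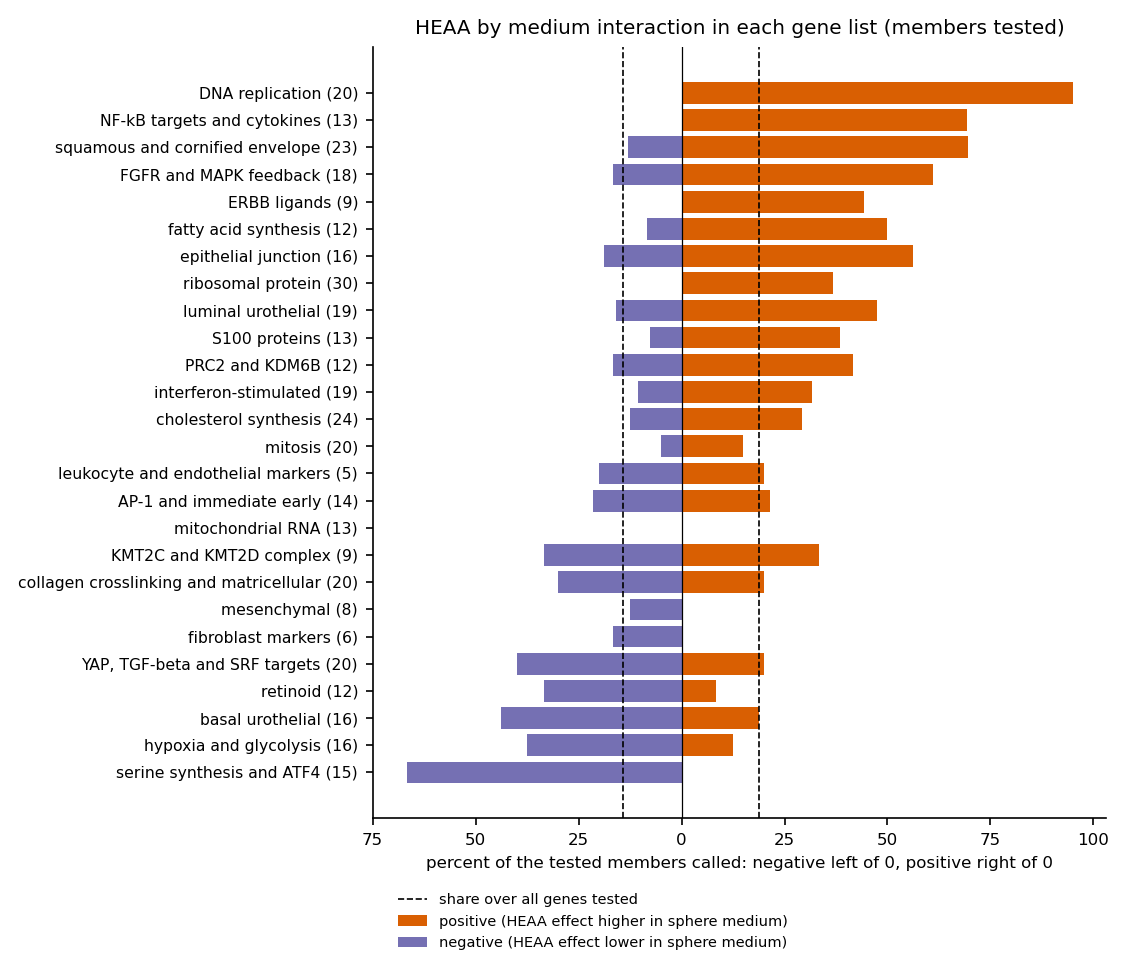
For each of the 26 gene lists, with the number of members tested in parentheses, the bars give the percentage of members with a positive interaction (right) and a negative one (left), and the dashed lines give the percentages over all genes tested, 18.7 and 14.3. DNA replication, NF-kB and squamous genes extend furthest to the right, and serine synthesis and ATF4 genes furthest to the left.

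The most uniform list was DNA replication, the genes that license and copy DNA in S phase. Of 20 members 19 were positive (95%) and none negative with edgeR, with a median of 0.52, and the 1 remaining, POLE, was at 0.13 (adjusted p = 0.118). DESeq2 gave the same counts, and none was negative at an unadjusted p under 0.05. All 20 were lower with HEAA in full medium, from CDT1 at -0.77 to E2F1 at -0.26, where 25.3% of all genes were lower. In sphere medium 8 were lower and 5 higher, the latter being E2F1, MCM2, RFC3, RFC4 and RRM2. CDC6, which loads the replicative helicase, was at 93.4, 96.6 and 97.3 CPM in EV_full, 63.5, 64.0 and 64.5 in HEAA_full, 74.0, 70.6 and 76.9 in EV_sphere and 76.0, 78.6 and 75.6 in HEAA_sphere. HEAA was below EV in full medium and overlapped with it in sphere medium (0.64 ± 0.05, adjusted p = 4.23e-09). The clamp loader genes RFC3 (0.72 ± 0.06) and RFC4 (0.58 ± 0.05) had opposite effects. Among mitosis genes, which peak later in the cell cycle, 3 of 20 were positive (15%), 1 was negative (5%), and the median was 0.09. With HEAA 8 of the 20 mitosis genes were lower and 3 higher in full medium, against 25.3% and 23.2% of all genes. In sphere medium 4 were lower and 3 higher, against 21.5% and 19.9% of all genes, shares near those of the list. BUB1 was 1 of the 8 lower in full medium and missed the threshold with the replicate number as a block within EV_full and HEAA_full (adjusted p = 0.0621). CDK1, the mitotic kinase, fell by 0.21 ± 0.04 in full medium only (0.27 ± 0.06, adjusted p = 0.00137), and MKI67 was at -0.05 (adjusted p = 0.554). The positive count of the mitosis list was 5 to 7 without EV_full replicate 1, HEAA_full replicate 3, EV_sphere replicate 3, HEAA_sphere replicate 3 or any 1 of the 6 UTX libraries. Its negative count was 0 without EV_full replicate 1, HEAA_full replicate 3 or HEAA_sphere replicate 1, the fits in which KIF20A missed the threshold.

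**Figure D4:**
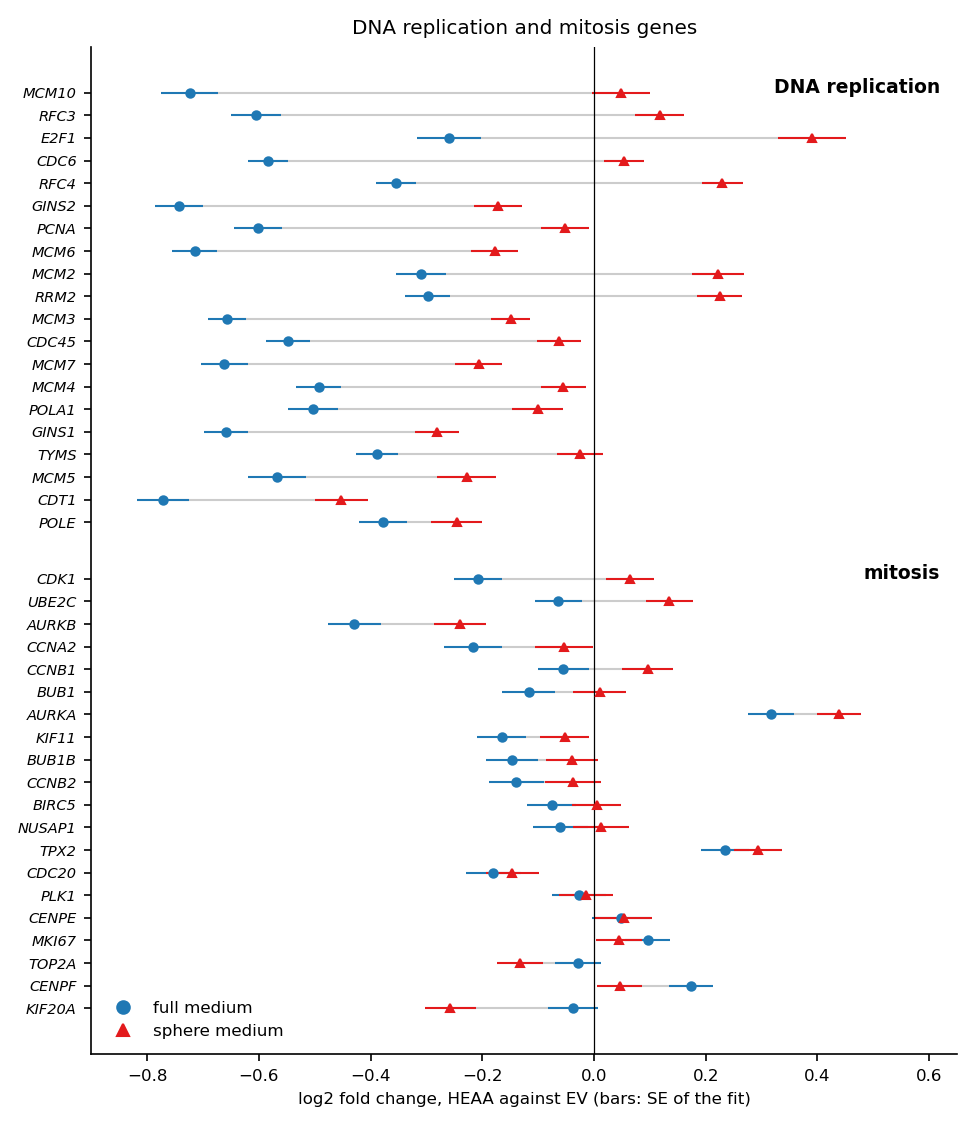
The log2 difference of HEAA from EV in full and in sphere medium for each tested gene of the DNA replication and mitosis lists, with SE. All 20 replication genes lie below 0 in full medium and 19 move up in sphere medium past the threshold, while of the 20 mitosis genes 8 were lower and 3 higher in full medium and 3 moved up past the threshold. Over all genes tested, 25.3% were lower and 23.2% higher in full medium, and 18.7% had a positive interaction.

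Of 9 subunits of the KMT2C and KMT2D complexes, to which UTX belongs, 3 were positive and 3 negative (33.3% each). The methyltransferase genes KMT2C (-0.58 ± 0.07, adjusted p = 2.24e-06) and KMT2D (-0.31) were higher with HEAA in full and lower in sphere medium, and WDR5 was positive (0.26). Among 12 genes of PRC2 and KDM6B 5 were positive (41.7%) and 2 negative (16.7%). EED, a PRC2 core subunit, fell from 67.3, 70.6 and 68.2 to 48.3, 48.1 and 48.4 CPM in full medium and rose by 0.10 ± 0.04 in sphere medium (0.61 ± 0.05). KDM6B, the other demethylase of this histone mark, rose by 0.51 ± 0.05 in full medium only (-0.50 ± 0.07). All 30 ribosomal protein genes were lower with HEAA in both media, and 11 were positive (36.7%), the fall being smaller in sphere medium. That count was 7 without EV_sphere replicate 2, 22 without HEAA_full replicate 3 and 19 without UTX_full replicate 2. None of 13 mitochondrial transcripts passed with edgeR, with DESeq2 or at an unadjusted p under 0.05. LUM (-1.13), VWF (1.33) and CD68 (-0.52, adjusted p = 0.0196) were the marker genes of other cell types that passed, and CD68 missed the threshold without EV_full replicate 1 or 2, HEAA_full replicate 2, EV_sphere replicate 1 or 2, or HEAA_sphere replicate 3 (adjusted p up to 0.0796). Without HEAA_sphere replicate 2 or UTX_sphere replicate 2 or 3, a second leukocyte or endothelial marker passed as positive.

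Values with wild type UTX were set beside those with HEAA. Both comparisons use the same EV libraries. UTX by medium gave 4143 positive (21.1%) and 3176 negative (16.2%) genes. S100A8 had an interaction of 7.90 ± 0.21 with UTX and 6.44 ± 0.17 with HEAA, and PI3 8.56 ± 0.38 and 6.30 ± 0.27. S100A8 held 8 counts over UTX_full and 29 over HEAA_full, and PI3 2 and 14, so their values rest on few reads there. In the same order SPRR3 was at 4.76 ± 0.20 and 4.43 ± 0.19, KRT16 at -2.30 ± 0.20 and -2.39 ± 0.18, and NRP2 at -2.82 ± 0.11 and -2.26 ± 0.10. The direct test of HEAA minus UTX, in which EV cancels, passed for 423 positive genes (2.15%) and 659 negative genes (3.36%), or 5.51% in all, and 21 (0.107%) and 54 (0.275%) of these were at least 2-fold. The negative count fell to 353 to 431 without any 1 of 8 libraries, HEAA_full replicates 1 to 3, HEAA_sphere replicates 2 and 3 and UTX_sphere replicates 1 to 3.

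S100A9 differed between the proteins. Its mean in full medium was 5.54 CPM with UTX and 19.8 CPM with HEAA, and its interaction was 5.95 ± 0.07 with UTX and 4.34 ± 0.07 with HEAA (HEAA minus UTX -1.61 ± 0.08, adjusted p = 8.15e-11). For S100A8 the difference was -1.46 ± 0.53 (adjusted p = 0.128), for PI3 -2.27 ± 1.07 (adjusted p = 0.265) and for KRT16 -0.09 ± 0.16 (adjusted p = 0.846). These do not pass. S100A8 and PI3 held 8 and 2 counts over UTX_full, so for them a missed threshold is no evidence of equal interactions. NRP2 passed (0.57 ± 0.11, adjusted p = 0.00229), its interaction being less negative with HEAA. SPINK5, a protease inhibitor of skin, was not detectably changed by HEAA in full medium and fell from 81.8, 84.9 and 99 to 42.3, 43.9 and 38.6 CPM in sphere medium. With UTX its mean there was 18.5 CPM (HEAA minus UTX 1.45 ± 0.19, adjusted p = 5.90e-05). TGM5, an epidermal transglutaminase, rose from 0.501, 0.870 and 0.259 to 5.45, 5.22 and 5.75 CPM in sphere medium. Its mean in full medium was 0.464 CPM with UTX and 1.49 CPM with HEAA (-1.64 ± 0.34, adjusted p = 0.00586).

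The alkaline phosphatase gene ALPG fell from 7.79, 9.23 and 7.99 to 3.18, 3.22 and 2.92 CPM with HEAA in full medium and held 12 and 18 counts over the EV_sphere and HEAA_sphere groups. Its mean with UTX in sphere medium was 0.629 CPM against 0.187 with HEAA (-1.74 ± 0.34, adjusted p = 0.00343). IL33, an alarmin cytokine, rose from 18, 21.1 and 17.5 to 36.5, 38.2 and 38.5 CPM in sphere medium and had means of 0.171, 0.0699 and 0.232 CPM in EV_full, HEAA_full and UTX_full (2.12 ± 0.53, adjusted p = 0.0203). IL33 missed the threshold without HEAA_full replicate 2 or 3 or UTX_full replicate 3 (adjusted p up to 0.0852). The globin CYGB (1.36 ± 0.38, adjusted p = 0.0375) missed it without any 1 of 8 libraries, HEAA_full replicates 1 and 3, HEAA_sphere replicates 2 and 3, UTX_full replicate 1 and UTX_sphere replicates 1 to 3 (adjusted p up to 0.121). By list, 9 of 20 DNA replication genes and 9 of 18 FGFR and MAPK genes were negative in HEAA minus UTX, against 3.36% of all genes. Their positive counts were 0 with edgeR, 0 and 1 with DESeq2, and 1 and 2 at an unadjusted p under 0.05. In the mitosis list 7 of 20 were positive with edgeR and 11 with DESeq2, against 2.15% of all genes with edgeR, and none was negative with either or at an unadjusted p under 0.05. The replication gene CDC6 had an interaction of 1.10 with UTX and 0.64 with HEAA (difference -0.47, adjusted p = 1.51e-05).

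**Figure D5:**
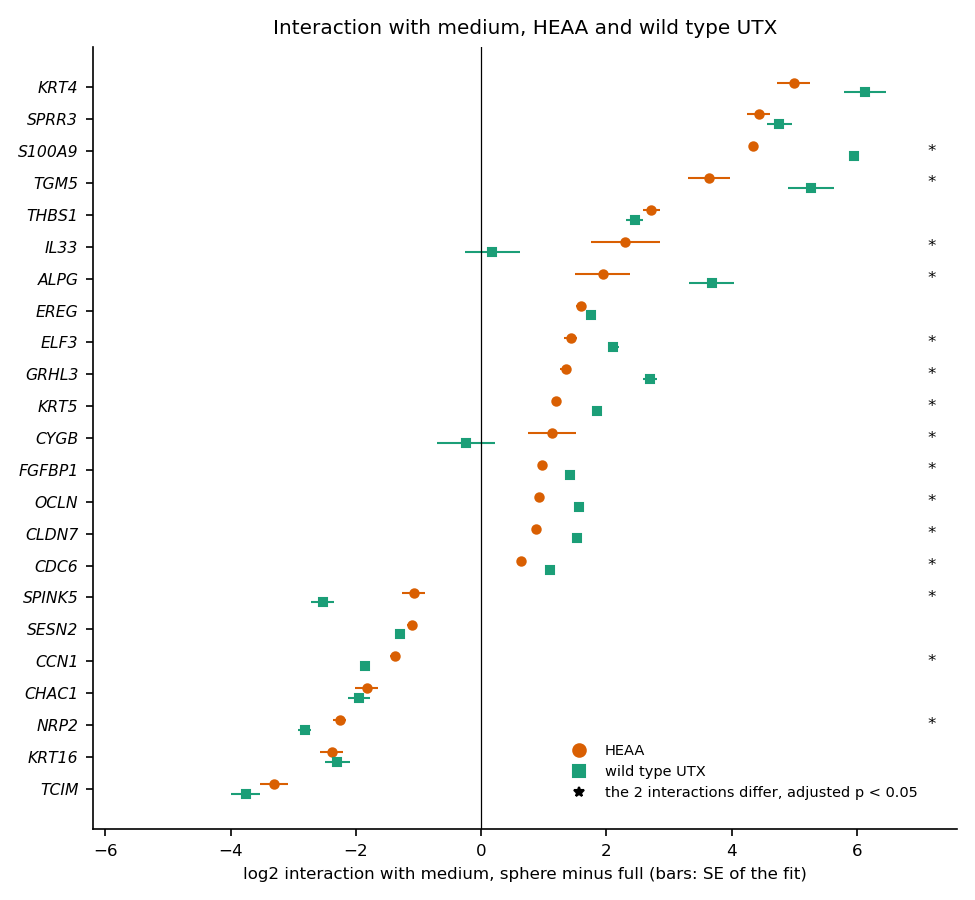
Log2 interaction with the medium, with SE, of the named genes for HEAA and for wild type UTX, which share the EV libraries; a star marks genes whose 2 interactions differ in the direct test. For S100A9 the UTX value of 5.95 lies to the right of the HEAA value of 4.34 and carries a star, while the 2 values of KRT16, -2.30 and -2.39, lie together without one.

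At the threshold itself, MPRIP, with an interaction of 0.13 ± 0.05 (adjusted p = 0.0499, or 0.0614 with the replicate number as a block within EV_full and HEAA_full), was the gene just inside and MFN2, at -0.14 ± 0.05 (adjusted p = 0.05), the one just outside. The median SE of the interaction over all genes was 0.132, larger than that of either gene.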

How the data were processed

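RNA of UMUC1 cells was measured by RNA-seq (Qiagen RNeasy extraction and Illumina TruSeq libraries, per the labels' protocols). The authors deposited a table of estimated counts per gene; Salmon 0.8, hg19, GRCh37 and DESeq2 are named, without a role, in the submitters' processing notes, and the sources used here do not give how transcripts were summed to genes. The estimated counts were rounded to whole numbers. Of 58288 genes, 16276 were at 0 in all libraries and 19629 passed edgeR's filterByExpr by group; 186 of these have no name in the table or reference, and no column of sample values was left unused.

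All 18 EV, HEAA and UTX libraries (3 in each of 6 groups) entered 1 edgeR 4.0.16 fit (R 4.3.3, limma 3.58.1) with TMM factors and 1 mean per group. The quasi-likelihood F test was adjusted by Benjamini-Hochberg over all genes tested (threshold 0.05). The SE is the log2 value divided by the square root of F. Where a group is near 0 it is a rough figure and cannot be read as precision. For PI3 it was 0.27 for the interaction and 0.28 for the full-medium effect, although the interaction also holds the spread of sphere medium. The common biological variation was 4.6%. Deviations of same-numbered EV_full and HEAA_full libraries correlated at 0.12 to 0.29, and differently numbered ones at -0.23 to 0.05. This was the 1 pair of groups with every same-numbered correlation over 0.1, and it was picked out after all pairs were seen. Differently numbered libraries of EV_full and HEAA_sphere reached 0.35. The labels state no pairing, and whether the numbers pair EV_full and HEAA_full was not tested. In the 5 other pairs of EV and HEAA groups, at least 1 same-numbered correlation was at or below 0.1. A group at 0 was set to a floor of 3 counts over the group.

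Named genes were KDM6A, S100A8 and LOXL2 and, at a mean of at least 2 CPM and with an ordinary symbol, the 8 largest interactions in each direction among genes with opposite, non-overlapping effects and the 8 largest among the others. Added to these were up to 3 members of each list by smallest p, the 3 largest differences between HEAA and UTX in each direction, and the gene nearest the threshold on each side. The 26 lists hold 430 genes, 402 of them tested. Members and lists were chosen with earlier results of these data known. Alternatives were RLE scaling, DESeq2 1.42.0, no filter, only 12 libraries, a replicate block, a larger prior count and each library left out. The other samples of the series were not used here. A few named genes are not reported here.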

Additional observations from a re-analysis of the deposited data

Results flagged for a closer look

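The response to HEAA differed between the media by the test of the difference for 3678 genes with a positive and 2803 with a negative interaction, and 949 genes moved in opposite directions in the 2 media.

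The medium dependence also differed between HEAA and wild type UTX, for 423 genes in the positive and 659 in the negative direction. The values of HEAA minus UTX were -1.61 for S100A9, 2.12 for IL33, 1.45 for SPINK5, 1.36 for CYGB, -1.74 for ALPG and -1.64 for TGM5. IL33 held 18 counts in EV_full and 6 in HEAA_full, so its value rests on few reads there. Leaving out single libraries gave 1.78 to 3.08 for IL33, 1.18 to 1.54 for CYGB and -1.70 to -1.51 for S100A9. No cause was tested.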

How the results depend on the processing

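No named gene changed sign under any alternative run. The counts of positive and negative interactions were 3746 and 2697 with RLE scaling, 3587 and 2202 with DESeq2, 4187 and 2117 without a filter, and 3818 and 2685 with only the 12 EV and HEAA libraries. Leaving out each library in turn gave 3566 to 4174 positive and 2119 to 2622 negative genes; leaving out the 6 UTX libraries was added after the data were seen. The count of 659 negative genes in HEAA minus UTX ranged from 353 to 591 with 1 library left out; the cause was not tested. Across all 4 groups same-numbered deviations correlated at -0.32 to 0.29 and differently numbered ones at -0.28 to 0.35. These ranges do not decide whether the numbers pair the samples. With a replicate block within EV_full and HEAA_full, added after the data were seen, 4438 genes were higher and 4904 lower with HEAA in full medium, and the interaction gave 3607 and 2718. Among genes named by the rule it changed the interaction call of MPRIP only, and among other genes in the text that of S100A2 (adjusted p = 0.0363). With the replicate block over all groups the counts were 3598 and 2718, MPRIP missed the threshold (adjusted p = 0.0678) and MFN2 passed it (0.0393). A prior count of 2 per library moved 12 genes of low counts, such as S100A7 to 6.39, SERPINB4 to 1.35 and BMP3 to -0.96. RLE scaling shifted the median interaction by 0.007. Few counts limit S100A7, SERPINB4, CYP4F22, SDR9C7 and RPTN in full medium.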

Other observations

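The medium-dependent barrier genes lie partly in gene clusters, which were chosen after the values were seen. In the epidermal differentiation complex (GRCh38, chromosome 1, 151982915 to 153631360) 38 of 63 protein-coding genes were tested, 15 had a positive and 2 a negative interaction, and 14 of the positive ones were at least 2-fold (over all genes 18.7%, 14.3% and 2.72%). Of the 38, 9 had no count in at least 1 group. SPRR1A, SPRR2B, SPRR2G, SPRR4, LCE3D and LCE3E had none in EV_full or HEAA_full, so their interaction could not be measured. With HEAA, 17 of the 38 were lower and 1 higher in full medium, and 11 were lower and 22 higher in sphere medium. The genes without counts in full medium passed the filter through sphere libraries only and could be called only there. Others, such as FLG2 (0.0597 CPM in EV_full and 0.1005 in HEAA_full), were near 0 in full medium. The filter thus shaped these counts, and their difference between the media is no result about the complex. Over all genes 25.3% were lower and 23.2% higher in full medium, and 21.5% and 19.9% in sphere medium. In the type II keratin cluster (chromosome 12, 52168996 to 52952901) 13 of 21 tested were positive and 1 negative. In the type I keratin cluster (chromosome 17, 40654665 to 41624842) 3 of 17 were positive and 6 negative. Among SERPINB genes of chromosome 18 (63476761 to 64019779) 6 of 9 were positive.

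Read as the response to the medium, 2113 of the 6481 genes moved the same way with both vectors and further with HEAA, 1608 the same way and further with EV, 1285 with HEAA only, 931 with EV only, 513 in opposite directions and 31 with neither. Over all genes tested, 33.1% were higher and 32.4% lower in sphere medium with EV, and 34.4% and 36.3% with HEAA. The split was not made over all genes, so it is no trait of the interaction genes.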
